A study of Saccharomyces cerevisiae with 13 samples.

Results

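Among the transcript models of *Saccharomyces cerevisiae* with at least 300 usable bases, 260 of 4108 were listed at a read density of 0 in all 4 pooled libraries, a share of 6.33%. They are called zero-read models here, and the other 3848 models of that length, which had reads in at least 1 library, are the comparison. The table holds 4280 models in all. The members were picked by their read density, so that their zeros describe the choice and are no finding. The minimum of 300 usable bases, which counts mappable bases, applies to both sets. Beyond it, length, base composition, position, mappability and function were not used to pick them.

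The cells were BY4742, a haploid MATα strain derived from S288C that carries deletions in HIS3, LEU2, LYS2 and URA3, grown in YPD with glucose. The heat shock groups, NRO (HS) and total RNA (HS), came from log-phase cultures kept at 39° for 20 min, and the log growth groups, NRO and total RNA, from cultures at 30°. In a nuclear run-on (NRO), stalled polymerases of permeabilized cells are restarted with biotin-UTP and the labelled nascent RNA is selected on streptavidin, whereas the total RNA libraries left out the selection. Of the 13 libraries that the labels name, 3 belong to each of these 4 groups and 1, an NRO library of 3′ ends, was not analysed here. The deposited values are 1 pooled value per group and model, with no replicate spread.

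In growing yeast most genes are transcribed at some level, but defined sets are shut. A MATα cell represses the a-specific genes through the α2 protein, which binds with Mcm1 to an operator before these genes. Meiosis genes are kept off in haploid cells and in rich medium, partly by Ume6, which binds the URS1 element. The mating-type copy at HMR and many genes near telomeres are silenced by chromatin.

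The sequences before 5 zero-read genes of these sets are shown, because they hold the elements named. They are 5′ to 3′ on the coding strand, from RefSeq R64, the assembly in which genes were found by systematic name. Capitals in the BAR1 and AGA2 stretches mark the fixed letters of the α2-Mcm1 operator pattern, which is CATGT, any 5 bases, CC, any 6 bases and GG, searched on both strands. The BAR1 stretch lies at chrIX:322048-322137 on the plus strand and held an overlapping match on each strand. The AGA2 stretch lies at chrVII:437082-437161 on the minus strand.
BAR1: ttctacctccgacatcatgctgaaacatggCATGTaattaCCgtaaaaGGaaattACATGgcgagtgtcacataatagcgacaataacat
AGA2: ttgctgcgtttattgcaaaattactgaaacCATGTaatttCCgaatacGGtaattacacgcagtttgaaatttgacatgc

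Capitals in the next stretches mark the URS1 core GGCGGC, also searched on both strands. The HOP1 stretch lies at chrIX:226391-226476, that of REC104 at chrVIII:412776-412861 and that of IME2 at chrX:220895-220980, all on the plus strand.
HOP1: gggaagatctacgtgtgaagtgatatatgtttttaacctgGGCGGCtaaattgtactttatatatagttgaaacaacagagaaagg
REC104: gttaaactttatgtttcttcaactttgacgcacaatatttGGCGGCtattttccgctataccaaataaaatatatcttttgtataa
IME2: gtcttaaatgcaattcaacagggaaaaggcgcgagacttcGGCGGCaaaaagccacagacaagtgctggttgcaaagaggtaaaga

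In the 500 bases before the start codon, the operator pattern occurred in 2 of 253 zero-read models with an R64 match, BAR1 and AGA2, and in 11 of 3836 other models (0.287%), among them STE2 and STE6. Over all models it occurred in 0.318%. The URS1 core occurred in 23 of 253 zero-read models (9.09%) and in 336 of 3836 other models (8.76%), against 8.78% of all. Within the meiosis list it occurred in 3 of 11 zero-read genes and in 3 of 12 genes with reads. The TATA element TATAAA was present in 61.7% of zero-read and 59.6% of other models, with 59.7% over all. A match of letters is a description of the sequence and not a binding site.

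Each value, the read density, is the average depth of the usable bases, those that are mappable and not intronic, with the first 200 bases after the transcription start site left out and the result divided by the size of the library. The depth was converted to estimated reads. The libraries held 378273 estimated reads for NRO (HS), 2491144 for NRO, 656630 for total RNA (HS) and 894262 for total RNA (943943 if its reads are taken as 36 and not 38 bases long), and the median other model held 11 reads in NRO (HS), 89 in NRO, 15 in total RNA (HS) and 30 in total RNA. A count of 0 allows up to 3 reads. For the zero-read model of median length this limit was a density of 0.00968 in NRO (HS), 0.00147 in NRO, 0.00558 in total RNA (HS) and 0.00410 in total RNA. The median density of the other models was 0.0205 in NRO (HS), 2.11 times that limit, 0.0260 in NRO (17.7 times), 0.0166 in total RNA (HS) (2.97 times) and 0.0235 in total RNA (5.73 times). The NRO library therefore set the closest limit and the NRO (HS) library the loosest, where 234 of the 260 limits were below the median of the other models. In the other 3 libraries all 260 were. In a bulk culture, a gene transcribed in few cells and one at a low level in every cell cannot be told apart. Limits cover counting error only, and amplified reads are not independent molecules.

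In each library, zeros were more frequent than counts of more than 0 and at most 3 reads. In NRO, 619 models (15.1%) were at 0 and 50 had more than 0 and at most 1 read. The same counts were 1215 (29.6%) and 139 in NRO (HS), 755 (18.4%) and 286 in total RNA (HS), and 530 (12.9%) and 195 in total RNA. More than 0 and at most 3 reads were held by 389 models in NRO (HS), 159 in NRO, 634 in total RNA (HS) and 485 in total RNA. The excess of zeros over these was thus small in the total RNA libraries. Of the 619 models at 0 in NRO, 354 were also at 0 in total RNA, and 260 of these were at 0 in both heat shock libraries as well. Of the 4108 models, the 94 that had reads only after heat shock held few of them. Their highest value was 13 NRO (HS) reads, in PPT2, and their median was 1 read in total RNA (HS). In the other direction, 373 models at 0 after heat shock were read in log growth, with up to 61.3 NRO reads, in EPS1. Each log growth library held more reads than its heat shock counterpart, so the counts of 94 and 373 do not compare gain and loss of transcription.

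**Figure D1:**
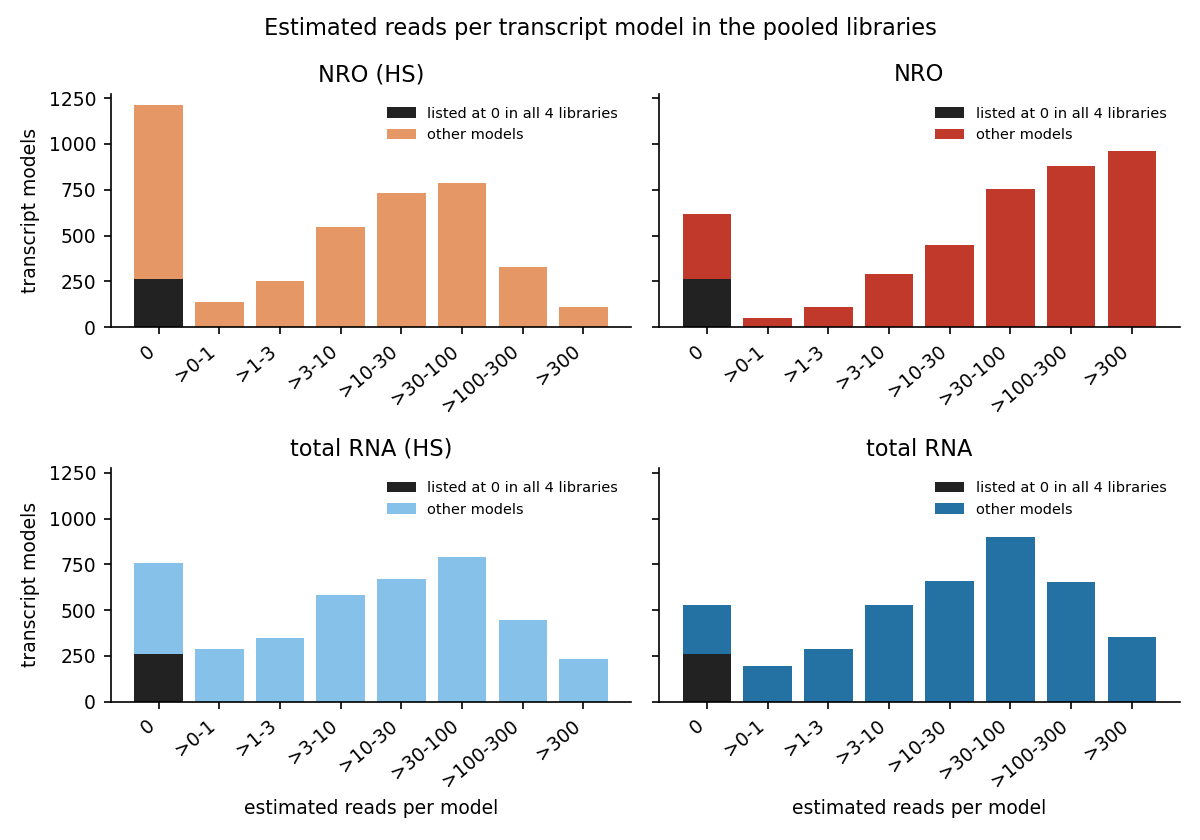
Number of transcript models with at least 300 usable bases by estimated reads, 1 panel per pooled library, with models at 0 in all 4 libraries in black and the other models in colour. The bar at 0 is taller than the bar of more than 0 to 1 read in each panel, 619 against 50 models in NRO.

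LYS2, which encodes the aminoadipate reductase of lysine synthesis, was the longest zero-read model, with 4122 usable bases at chrII:469718-473839 (minus strand, sacCer2, the build of the files). It had 0 reads in NRO (HS), 0 in NRO, 0 in total RNA (HS) and 0 in total RNA, and its NRO limit was a density of 0.000292. LYS2 is deleted in BY4742. It was picked for its zeros, so these values are no check of the deletion and set no background level. HIS3, LEU2 and URA3 were not among the models analysed here.

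Of the 8 a-specific genes, 7 had a model, and 4 of them had no read in any library. BAR1, the protease that degrades α-factor, had 0 reads over 1701 usable bases (chrIX:322483-324183, plus strand, sacCer2) in each of the 4 libraries. AGA2, a subunit of a-agglutinin, had 0 over 302 (chrVII:436474-436775, minus strand, sacCer2). MFA1 and MFA2, which encode the a-factor pheromone, also had 0 reads in each library, but over 75 and 129 usable bases they were too short to count as members. The 3 others had few reads. STE2, the α-factor receptor, had 0 reads in NRO (HS), 0 in NRO, 0 in total RNA (HS) and 2 in total RNA. ASG7 had 3 reads in NRO (HS) and 0 in the other 3 libraries. STE6, the a-factor exporter, had 5 reads in NRO (HS), 5 in NRO, 3 in total RNA (HS) and 8 in total RNA over 3896 usable bases. None of these genes went above 8 reads in a library. The 4 α-specific genes of the list had no model here. BAR1 and AGA2 were picked for their zeros, so these values are no check of the mating type of the strain. HMRA1, the copy of the a1 gene kept silenced at HMR, was a zero-read model with 337 usable bases at chrIII:294001-294337 (plus strand, sacCer2). Its R64 gene lies 22.3 kb from the end of chromosome III.

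Genes of meiosis and sporulation were the named list with most zero-read members. Of 23 such genes with a long enough model, 11 were at 0 in all 4 libraries, 47.8% against 6.33% of all models. The list was made by name with earlier results of these data known, so its share is a description only. The wider annotation class of meiosis and sporulation had 19 of 176 models at 0 (10.8%). The 22 models of that class that are also in the list held 11 of these 19, and the 154 outside it held 8 (5.19%), below the share of all models. They stand for several steps of the programme. IME1 encodes the regulator that starts meiosis (1092 usable bases) and IME2 the kinase that follows it (2052). HOP1 is a protein of the meiotic chromosome axis (1779), REC104 takes part in making the double-strand breaks of recombination (634), and MSH5 acts in crossing over (2565). ECM11 works in assembly of the synaptonemal complex (758), and SSP2 (1566), SPO73 (408) and SPO75 (2470) act in forming spores. YSW1 (1857) and BNS1 (445) complete the group. The NRO limits were between 0.000469 in MSH5 and 0.00295 in SPO73.

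The other 12 meiosis genes ranged widely. REC107, a recombination gene whose RNA is spliced in meiosis, had 62.2 reads in NRO (HS), 290 in NRO, 36.3 in total RNA (HS) and 50.6 in total RNA. MUM2, a subunit of the meiotic RNA methyltransferase, had 8 reads in NRO (HS), 130 in NRO, 3 in total RNA (HS) and 25 in total RNA. These 2 genes were read in all 4 libraries, as were 3 others of the list. NDT80, the regulator of middle meiosis genes, had 15 NRO reads, and MUM3 was just outside the zero-read set with 0.333 reads in NRO (HS) and none in the other libraries. Only 24 of the 91 listed meiosis genes had any model, and SPO24, with 290 usable bases, was too short. The share describes the other 23 and not the programme as a whole.

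**Figure D2:**
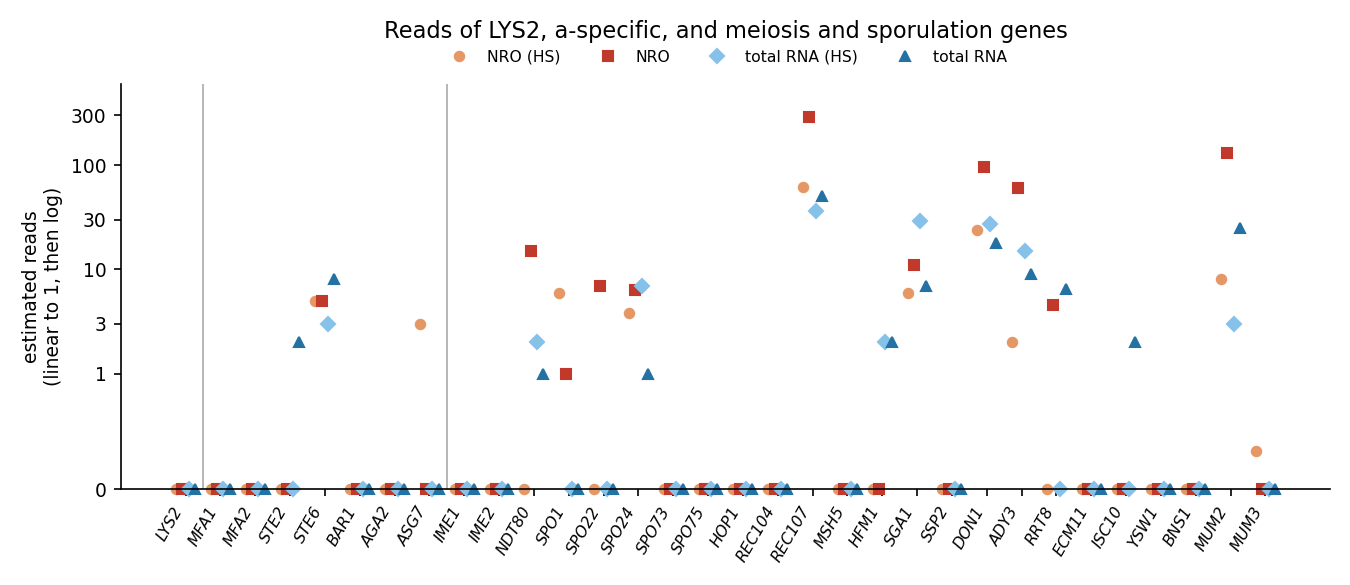
Estimated reads of each a-specific and each meiosis and sporulation gene with a model, and of LYS2 at the far left, in the 4 pooled libraries. The vertical axis is linear to 1 and logarithmic above, and grey lines part the 3 sets. LYS2, MFA1, MFA2, BAR1, AGA2 and 11 meiosis genes lie at 0 in every library, whereas REC107 reached 290 NRO reads.

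Among other lists of genes that glucose-grown cells need little, the alternative sugar genes had 2 of 8 members, 25% against 6.33% of all models. HXT14, a member of the hexose transporter family, had 0 reads over 1425 usable bases, and MAL33, a maltose activator gene, had 0 over 1418. SUC2, the invertase gene, had 22 reads in NRO (HS), 82 in NRO, 2 in total RNA (HS) and 11 in total RNA. No member came from the gluconeogenesis and non-fermentable carbon genes (0 of 8), the nitrogen catabolism genes (0 of 10), the thiamine and vitamin B6 genes (0 of 6), the seripauperin and anaerobic cell wall genes (0 of 4) or the subtelomeric gene families (0 of 4). Lists of 4 to 10 genes would hold few zero-read models at the share of all models. The glycolysis genes (0 of 18), with a median of 5609 NRO reads, the mitotic cell cycle genes (0 of 22) and the cytoplasmic ribosomal protein genes (0 of 111) had none.

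The zero-read set also held subunits of complexes that dividing yeast cells need. Whether these genes were in use was not tested, and they were named after their values were seen. POP4 (840 usable bases), POP7 (397) and POP8 (343) are subunits of RNase P and RNase MRP, which process tRNA and rRNA precursors, and made 3 of 9 models of these enzymes (33.3%, against 6.33% of all models). PRP11 (729), HSH49 (641) and DIB1 (327) are spliceosome proteins, and 7 of 74 spliceosome models (9.46%) were at 0, near the share of all models. SRB6 (306), SRB5 (863) and CSE2 (360) made 3 of 18 Mediator models (16.7%). DAD3 (360), a subunit of the DASH ring at the kinetochore, was among 4 of 49 kinetochore models (8.16%), also near that share. YCS4 (3464), a condensin subunit, PSF1 (546), of the GINS complex of DNA replication, TFC8 (1688), of TFIIIC, and SPC3 (502), of signal peptidase, were at 0 as well. A value of 0 in these files is therefore reported as a listed value. It does not show that a gene was off, and the name silent was not kept for the set.

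Genes of organelles were present too. Of 61 mitochondrial ribosomal protein models, 8 were at 0 (13.1%), with a median of 401 usable bases among those 8, but 53 of all 908 mitochondrial protein models (5.84%) were at 0, near the share of all models. Of the 26 autophagy ATG genes, 6 were at 0, 23.1% against 6.33% of all models, namely ATG10, ATG12, ATG17, ATG31, ATG34 and ATG38. Of the 28 peroxisome PEX and INP genes, 5 were at 0 (17.9%), namely PEX17, PEX27, PEX35, INP1 and INP2. These classes were drawn from the annotation after the members had been seen. Models without a gene name, counted here with those that have no R64 match or an uncharacterized or hypothetical product, formed a further class. They made 43 of 260 zero-read models (16.5%) and 200 of 3848 other models (5.20%). Of the 43, 7 had no R64 match.

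**Figure D3:**
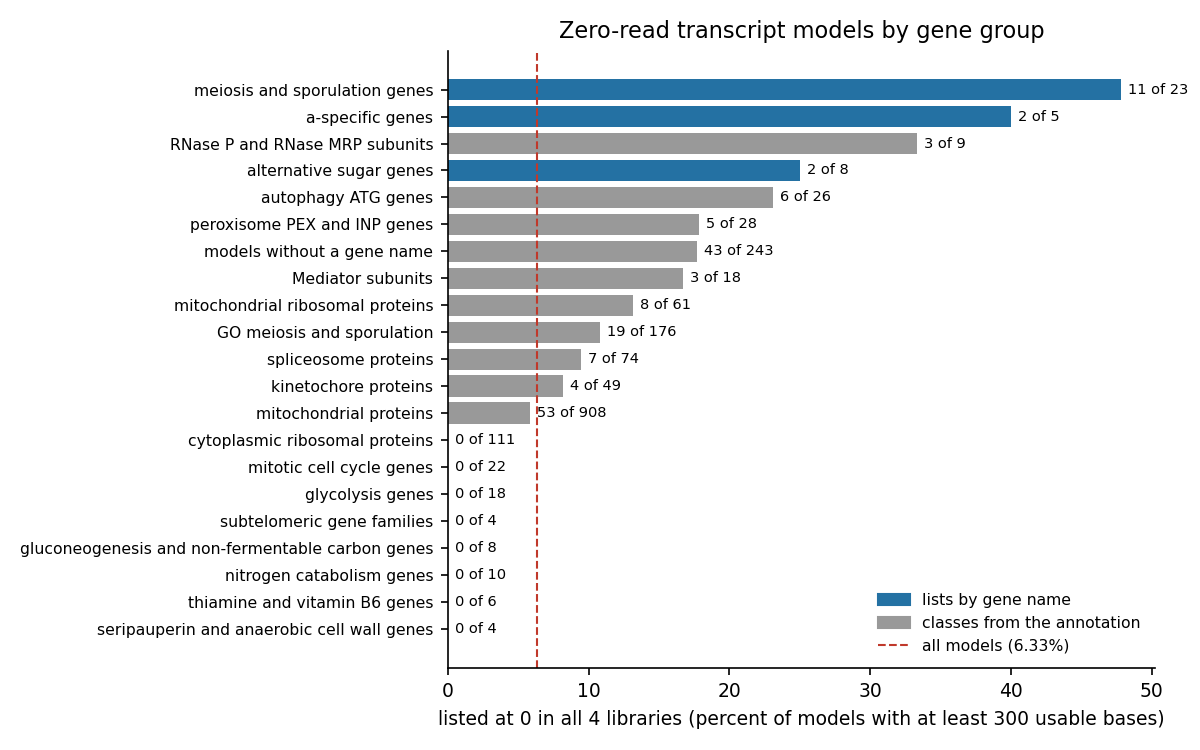
Percent of models at 0 in all 4 libraries in each named list (blue) and annotation class (grey) with at least 4 such models, with counts beside the bars and the 6.33% of all models as a dashed line. Of the groups drawn, the meiosis and sporulation list stands highest at 47.8%, and glycolysis, mitotic cell cycle and cytoplasmic ribosomal protein genes had none.

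The zero-read models had AT-rich coding sequences. GC content here is that of the whole R64 coding sequence and not of the region over which reads were counted. The GC content of their coding sequence had a median of 36.9% (quartiles 35.7% and 38.3%, n = 253), and that of the other models 39.9% (38.1% and 42.1%, n = 3837). Of the 253 zero-read models, 233 were below the median of the others. The zero-read share was 35.6% of 45 models with under 34% GC, 24.6% from 34% to 36%, 11.9% from 36% to 38%, 5.54% from 38% to 40%, 1.37% from 40% to 42%, 0.373% from 42% to 44% and 0.211% of 473 models above that. It fell at each step. A total of 15 zero-read models had at least 40% GC, and BAR1, AGA2 and SPO73 were among them.

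The same order held in each library alone. Models under 34% GC were at 0 in 77.8% of cases in NRO (HS), 57.8% in NRO, 62.2% in total RNA (HS) and 57.8% in total RNA. Models with at least 44% GC were at 0 in 3.17% of cases in NRO (HS), 1.27% in NRO, 1.69% in total RNA (HS) and 0.634% in total RNA. Among models with reads, the level also went with GC. The median NRO density was 0.00286 under 34% GC and 0.192 at 44% or more. GC content thus moved with the read density over the whole table and not only with the zeros. Its part in the zeros was not tested.

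Zero-read models were short. Their usable length had a median of 819 bases (quartiles 509 and 1223, range 301 to 4122), and the others a median of 1307 (817 and 2013, range 300 to 14813). The zero-read share was 14.1% of models from 300 to 600 bases, 9.36% from 600 to 900, 7.19% from 900 to 1200, 4.94% from 1200 to 1800, 2.47% from 1800 to 2400, 0.879% from 2400 to 3600 and 0.485% beyond. The limit of 3 reads is a lower density in a longer region, so that a count of 0 is the stricter condition there. The orders by length and by GC were present together. From 300 to 600 bases, 39.8% of models under 38% GC and 6.77% of the rest were at 0, and at 1800 bases or more, 3.39% and 0.397% were.

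**Figure D4:**
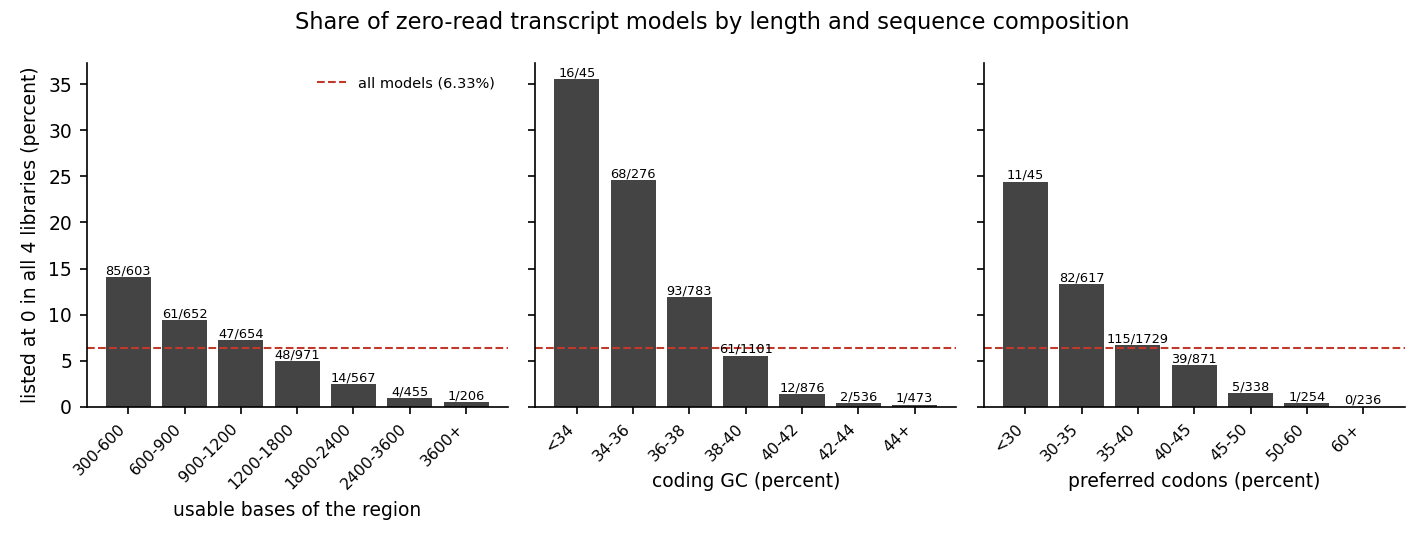
Percent of models at 0 in all 4 libraries by usable length, by GC content of the coding sequence and by share of preferred codons, with zero-read and total counts over the bars and the 6.33% of all models as a dashed line. The share fell from class to class along each axis, from 35.6% under 34% GC to 0.211% at 44% or more.

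Preferred codons, the codons used most by the cytoplasmic ribosomal protein genes, made a median of 36.1% of codons in zero-read models and 39.0% in other models. The ribosomal protein genes themselves had 76.1%. Of the zero-read models, 195 of 253 were below the median of the others. None of 236 models with at least 60% preferred codons was a member. From 36% to 38% GC, 15.5% of models under 37% preferred codons were at 0, 8.61% of those from 37% to 40% and 9.19% of those above, so that within this band the lowest class stood above the other 2.

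The gene groups were read again within GC bands. Of meiosis genes under 36% GC, 4 of 8 were at 0, beside 26.2% of all models in that band, and from 36% to 38% GC 4 of 8, beside 11.9%. From 38% to 40% it was 2 of 4 beside 5.54%, and at 40% or more 1 of 3 beside 0.796%. The share of this list, made with earlier results known, was above that of all models in each band, on 3 to 8 genes. The wider annotation class stood nearer to all models, with 8 of 27 under 36% GC (29.6%), 8 of 50 from 36% to 38% (16.0%), 2 of 40 from 38% to 40% (5%, below all models) and 1 of 59 at 40% or more (1.69%). Models without a gene name, of which 225 had an R64 coding sequence, were above the share of all models in each band. They went from 13 of 26 under 36% GC to 5 of 97 at 40% or more. The 3 RNase P and MRP genes, all 6 autophagy genes and all 5 peroxisome genes at 0 had under 38% GC, where 16.0% of all models were at 0. In that band, 3 of 5 RNase P and MRP models, 6 of 10 autophagy models and 5 of 10 peroxisome models were at 0, above the share of all models. So were 5 of 9 mitochondrial ribosomal protein models and 2 of 6 Mediator models. Spliceosome models there were at 0 in 5 of 31 cases (16.1%) and kinetochore models in 2 of 23 (8.70%). These classes were drawn after the members had been seen, so their shares are descriptions only. Length was not held in the band, and from 300 to 600 bases 39.8% of all models under 38% GC were at 0.

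The set graded into its neighbours. Models at 0 in 0, 1, 2, 3 and 4 libraries numbered 2722, 480, 339, 307 and 260. Their median usable length was 1411, 1323, 1137, 904 and 819 bases, their median GC 40.8%, 38.5%, 38.1%, 37.5% and 36.9%, and their share without a gene name 4.04%, 5.83%, 9.14%, 10.1% and 16.5%. Each of these moved in 1 direction along the series. Among the other models, 103 had at most 1 read in all 4 libraries together. The closest to the members were SDC1 with 0.0263, DUN1 with 0.0526 and GPI11 with 0.211 total RNA reads and none elsewhere. At the length limit, YBL029C-A with 301, AGA2 with 302 and SRB6 with 306 usable bases were just inside, and SFT1 with 299, YIL115W-A with 296 and SDH6 with 296 were just outside.

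Among models with at least 300 usable bases, mappability, the share of bases in unique sequence, did not set the zero-read models apart. That minimum counts mappable bases, so models with few of them were already left out of both sets. Of the 260, 257 (98.8%) were mappable over the whole region, against 3735 of 3848 others (97.1%). The 3 exceptions were FEX1, a fluoride exporter with a near-identical copy, at 37.04% of 999 bases, MAL33 at 96.5% and RRT13 at 97.2%. Below 90% mappable there was 1 zero-read model (0.385%), FEX1, against 42 other models (1.09%). No zero-read model had depth over its full set of bases in any library, and the intronic bases that 4 of them hold (YCL012C, OST5, LSM7 and GPI15) had none either.

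Near chromosome ends the zero-read share was higher, but few models lay there. In R64, 16 of 253 zero-read models (6.32%) and 133 of 3836 other models (3.47%) lay within 30 kb of an end. The zero-read share was 1 of 12 within 10 kb, 8 of 54 from 10 to 20 kb, 7 of 83 from 20 to 30 kb and 7 of 205 from 30 to 50 kb, and then 3.72%, 5.64% and 7.03% of models from 50 to 100, from 100 to 200 and beyond 200 kb. The highest share, 14.8% from 10 to 20 kb, and the lowest, 3.41% from 30 to 50 kb, were thus 2 classes apart. The median distance was 250 kb in zero-read and 210 kb in other models. At under 36% GC, 8 of 14 models within 30 kb of an end and 76 of 306 models further in were at 0, and at 40% GC or more, 0 of 74 and 15 of 1811 were.

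The zero-read models nearest to an end were YOL164W-A at 4.13 kb on chromosome XV, YDR541C at 11.2 kb on IV, MAL33 at 11.3 kb on II, FEX1 at 13.4 kb on XV and IRC4 at 14.3 kb on IV. YDR541C and IRC4 are neighbours. By chromosome the share was between 1.33% (1 of 75, chromosome VI) and 9.43% (28 of 297, chromosome II) among the nuclear chromosomes. The plus strand held 51.5% of zero-read and 50.7% of other models.

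**Figure D5:**
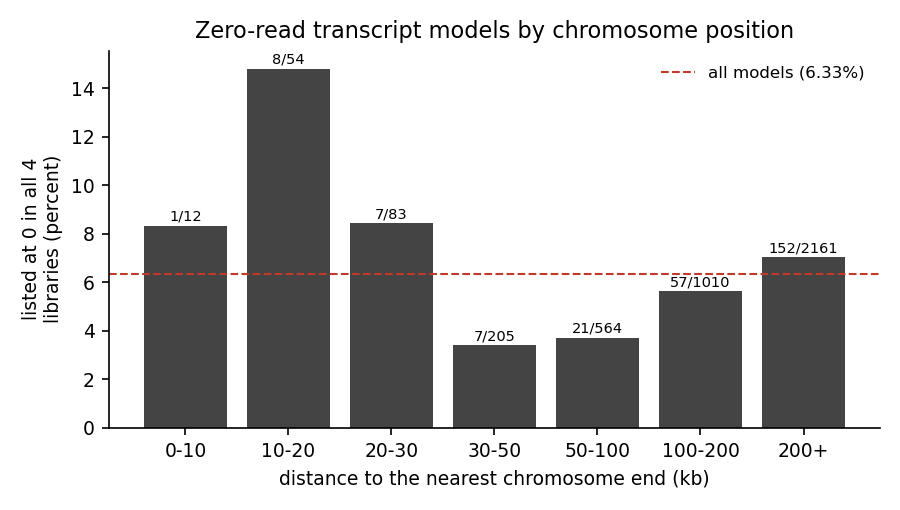
Percent of models at 0 in all 4 libraries by distance of the R64 gene from the nearest chromosome end, with counts over the bars and the 6.33% of all models as a dashed line. The highest bar, 8 of 54 models from 10 to 20 kb, and the lowest, 7 of 205 from 30 to 50 kb, are 2 classes apart.

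Zero-read models were scattered along the chromosomes. After a zero-read model, the next long enough model was also one in 20 of 257 cases (7.78%), against the 6.33% of all models. Of the runs, 224 held 1 model, 12 held 2 and 4 held 3. The runs of 3 were RRG1, RTR2 and OCA6 as well as MET32, CHL4 and RMD5 on chromosome IV, HOP1, PCI8 and MAM33 on IX, and YPL071C, MUK1 and BTS1 on XVI. HOP1 was the member of the meiosis list in these runs, and its neighbours belong to other processes: MAM33 is a mitochondrial matrix protein.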

How the data were processed

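The authors deposited coverage signal in 1 table per group for 4280 transcript models. The authors aligned reads to sacCer2 with Maq, kept a mapping quality of at least 30, merged the replicates of each group and scaled depth to the bases acquired. The version of Maq is not given in the sources used here. Lengths in bases came with the deposited signal tables. A model counts as zero-read at a density of 0 in each library over at least 300 usable bases.

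From the deposited coverage, the step of the depths gave the bases acquired, and the length that divides most low depths gave read lengths of 36 bases (38 in total RNA). Of the models with at most 10 reads, between 81.7% and 85.8% then held whole reads, that is an exact multiple of the length after rounding to whole bases. The methods give 36 bases for all libraries. The unique total RNA reads counted in the paper are also nearer to the total at 36 bases than to that at 38. At 36 bases, 0.601% of such total RNA models held whole reads, so 38 was kept, and the cause of the difference was not tested. Which models are at 0 does not depend on it. Estimated reads are depth over read length. Pooling left no test across replicates, so groups are described by counts, shares and medians, and no p-value is given. The steps were tested on simulated data.

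Names, GC content, codons and distances came from RefSeq R64, in which 4259 models, 253 of them zero-read, were found by systematic name. R64 is not the build of the files, and no coordinates were converted. Members and gene lists were chosen with earlier results of these data known. Named genes were all of the auxotrophy and a-specific lists, in each other list up to 5 zero-read genes with most usable bases and the 2 others with the highest NRO density, and the members extreme in length, mappability and distance from an end. The other members named, GC content, codons and annotation classes were chosen after values were seen. The alternatives covered the length limit, the read limit, the libraries required, the mappable share, introns and the distance limit. Of the deposited columns, 12 with other sums and means of the signal were left aside. Software was matplotlib 3.10.9, scipy 1.17.1, pandas 2.3.3, numpy 2.4.6 and Python 3.11.15.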

Additional observations from a re-analysis of the deposited data

How the results depend on the processing

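Over 47 recomputed values, 41 stayed within 1.5 times the reported count or limit, or within the 95% interval of the reported share or median. Some of these could hardly move, since the median mappable share was 100% in each setting. Counting intronic bases left the same 260 models. The bound of 1.5 times was a choice, and the intervals treat models as independent, so the count of 41 is a description only. The number of zero-read models was 306 with a minimum of 100 usable bases, 175 with 600, 383 with at most 1 read in every library, 354 when only the log growth libraries were required, 278 without NRO (HS), and 259 among models at least 90% mappable. The median usable length moved to 703 bases at a minimum of 100 and to 1036 bases at 600, which follows from the limit itself. The zero-read share of models without a gene name, 17.7% as reported, moved to 25.1% with at most 1 read allowed and to 23.9% with only the log growth libraries. The share of zero-read models near an end moved to 3.56% within 20 kb, against 1.49% of other models, and was 9.09% against 8.63% within 50 kb. The upper limit of the mean NRO density over all zero-read models, 4.91e-06 at 3 reads, became 1.64e-06 at 1 read. It is no estimate, since the models were picked at 0. The share of meiosis and sporulation genes was between 42.9% and 52.2% over the alternatives.

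No paired analysis was possible because the values are pooled over the replicates of each group. Depth limits the zeros most in NRO (HS), and reads in the first 200 bases after the start site were outside the region. Only genes with mapped transcript ends and no overlap on the same strand have a model, which leaves out many genes of the lists.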

Other observations

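Models too short for the zero-read set were at 0 more often. Of the 172 models under 300 usable bases, 57 (33.1%) had no read in any library, MFA1 and MFA2 among them.

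Among the 94 models read only after heat shock, the centromeric histone gene CSE4 had 7 reads in NRO (HS) and 0 in total RNA (HS), and GUP1 had 4 in NRO (HS) and 2 in total RNA (HS). In NRO (HS), 9 of the 94 had more than 3 reads, and in total RNA (HS) 5 had.

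Of the 15 zero-read models with at least 40% GC, AAC3 (982 usable bases) and CYC7 (315) are hypoxic genes, the minor forms of the ADP/ATP carrier and of cytochrome c. They were named after their values were seen. None of the 4 seripauperin and anaerobic cell wall genes was a zero-read model, and these had from 0 NRO reads in PAU17 to 280 in TIR1.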
